A study of Homo sapiens with 6 samples.

Results

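The genes described here are 31 interferon-stimulated genes and regulators of the interferon response, chosen by name, and 27 of them had a row of their own among the 26906 rows of the table. OAS2, IFI44, IFI44L and IFIH1 had no row under their name and are not analysed here. Poly-A selected RNA was sequenced from BE-(2)-C cells, a human neuroblastoma line, treated with ELF4 siRNA (3 libraries) or with Control siRNA (3 libraries) and collected after 48 hours in both groups. Cells of both groups were cultured in the same serum-containing medium, and the labels name no interferon, virus or other inducer. All 6 libraries come from this 1 line, and an siRNA lowers its target without removing the gene. The comparison asks how the interferon-response genes differed between cells with lowered ELF4, an ETS-family transcription factor, and control cells.

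Interferons are secreted proteins that bind cell-surface receptors, and the JAK kinases on those receptors phosphorylate STAT proteins. STAT2 and IRF9 act in a complex that binds the interferon-stimulated response element (ISRE), while STAT dimers bind the gamma-activated site (GAS). The genes switched on in this way encode sensors of viral RNA, proteins that bind or modify RNA, and the ubiquitin-like protein ISG15. In human and mouse cells ELF4 is itself known as a factor that promotes induction of type I interferon. Interferon regulatory factors (IRFs) bind the same kind of letters as the ISRE, and IRF3 and IRF7 drive interferon genes once the adaptor MAVS passes on a signal from the RNA sensors.

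The letters that these factors recognise were looked up in the promoter windows of RefSeq (build GRCh38.p14), which run from 250 bases before to 50 bases after each gene start. The ISRE was searched as GAAA, any 2 bases and GAAA again, and the GAS as TTCNNNGAA, on both strands. A window was held for 24 of the 31 genes, with DDX58 found under its current symbol RIGI, and several genes had more than 1 window, giving 31 windows. The ISRE letters were present in 17 of these 24 genes (21 of 31 windows), against 3.57% of all 35116 windows, and the GAS letters in 7 of 24 genes (8 of 31 windows), against 7.66% of all windows. Letters of the ETS family to which ELF4 belongs, searched as CCGGAAG on both strands, were in 0 of the 31 windows, against 10.3% of all windows. Only that exact string was searched, so close variants were not counted, and the 0 does not show that ETS letters are absent. The ISRE search likewise counted only GAAA repeats with exactly 2 bases between them. All these matches describe letters only, and ISRE and GAS matches may overlap each other. Shown are the windows of 3 genes that were lower after ELF4 siRNA and hold ISRE letters, and of the gene with the largest rise, which holds GAS letters only. Capitals mark ISRE and GAS matches. They lie at chr1:1013247-1013546 (plus strand) for ISG15, chr12:112938224-112938523 (plus strand) for OAS3, chr19:17405581-17405880 (minus strand) for BST2 and chr5:132490724-132491023 (minus strand) for IRF1.
ISG15: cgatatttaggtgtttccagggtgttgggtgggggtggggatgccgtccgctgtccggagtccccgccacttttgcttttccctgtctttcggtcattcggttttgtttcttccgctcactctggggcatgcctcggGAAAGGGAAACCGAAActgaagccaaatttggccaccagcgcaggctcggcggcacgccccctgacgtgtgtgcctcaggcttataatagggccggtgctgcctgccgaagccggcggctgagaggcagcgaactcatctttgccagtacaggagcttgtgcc
OAS3: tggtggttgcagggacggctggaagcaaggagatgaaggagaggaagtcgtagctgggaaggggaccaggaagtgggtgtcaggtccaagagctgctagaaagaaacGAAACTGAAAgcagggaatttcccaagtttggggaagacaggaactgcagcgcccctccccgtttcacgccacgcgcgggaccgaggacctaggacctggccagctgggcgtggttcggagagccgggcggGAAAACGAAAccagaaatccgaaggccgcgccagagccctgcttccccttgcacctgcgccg
BST2: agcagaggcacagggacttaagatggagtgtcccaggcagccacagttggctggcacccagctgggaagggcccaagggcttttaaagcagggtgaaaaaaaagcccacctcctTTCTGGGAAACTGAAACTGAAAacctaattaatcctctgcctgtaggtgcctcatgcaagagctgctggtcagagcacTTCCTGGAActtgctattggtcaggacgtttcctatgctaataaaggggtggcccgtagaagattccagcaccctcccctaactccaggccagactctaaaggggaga
IRF1: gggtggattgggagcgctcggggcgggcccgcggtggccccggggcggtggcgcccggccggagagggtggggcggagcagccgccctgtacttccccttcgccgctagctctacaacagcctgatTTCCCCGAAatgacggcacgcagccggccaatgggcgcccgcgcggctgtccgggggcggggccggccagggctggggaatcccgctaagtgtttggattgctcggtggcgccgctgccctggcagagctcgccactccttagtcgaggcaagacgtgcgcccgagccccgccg

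The ISG15 window holds a pair of overlapping ISRE matches, starting 113 and 107 bases before the gene start. In the OAS3 window the ISRE matches start 143 and 12 bases before the start. The BST2 window holds overlapping ISRE matches at 130 and 124 bases before the start and GAS matches at 136 and 58 bases, the farther of which overlaps an ISRE match. The single GAS match of IRF1 starts 124 bases before the start.

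**Figure D1:**
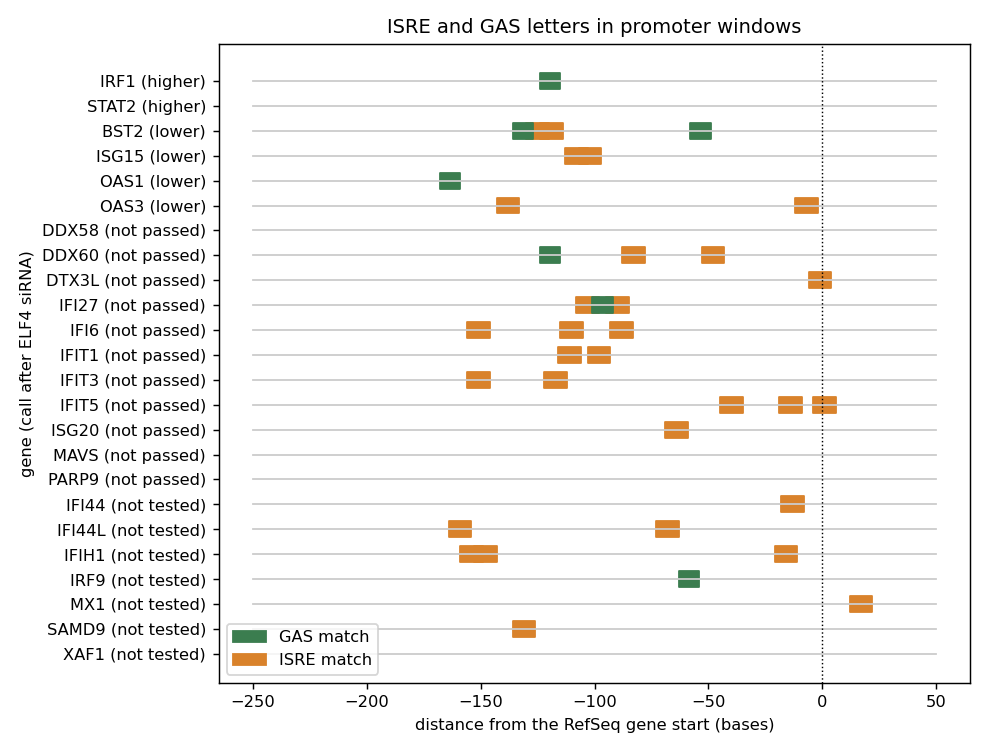
Matches to the ISRE letters (orange) and GAS letters (green) in the promoter window of each of 24 genes, by distance from the RefSeq gene start in bases; for genes with several windows the first is drawn. Genes are ordered by their call after ELF4 siRNA, and the ISG15, OAS3 and BST2 rows carry ISRE matches while the IRF1 row carries a GAS match.

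Each library held between 23148635 and 38097986 recovered reads. The normalised read count of ELF4 was 5.51, 5.61 and 3.10 in ELF4 siRNA replicates 1 to 3, against 42.4, 38.8 and 46.8 in control siRNA replicates 1 to 3, a level of 11.1% of control (log2 fold change -2.96, SE 0.25, limma adjusted p = 5.38e-07). With 3 libraries in each group, a two-sided exact permutation test cannot go below p = 0.1, and it gave 0.1 for ELF4. The adrenergic markers checked the labelled cell type: all 10 of 10 were measured, with summed values of 217032 to 237957 in ELF4 siRNA libraries and 194441 to 207186 in control libraries, and 2 genes rose and 4 fell (60% called, beside 45.1% of all genes). All of these markers but TH had a mean of at least 1000, a level at which 63% of all tested genes were called. The 4 falls numbered 0 without the trend and 1 without control replicate 1 or without control replicate 3. Leukocyte markers summed to 56.2 to 69.6 in ELF4 siRNA libraries and 61.7 to 70.1 in control libraries, and CD3E, CD68 and ITGAM were among those with no row. Of 3 tested leukocyte markers, 1 rose and 1 fell (66.7% called, beside 45.1% of all genes and 23.1% of those with a mean of 10 to 100). PTPRC, which rose, and LYZ entered the test through their ELF4 siRNA values. The share called is therefore no result about these markers, and the PTPRC call gives no support for a rise. Of 7 fibroblast markers 6 were tested, and all 6 were called, 4 higher and 2 lower (100% called, beside 45.1% of all genes). COL3A1 had 284 ± 57.7 after ELF4 siRNA and 82.8 ± 8.13 in control, DCN had 1722 ± 58.7 after ELF4 siRNA and 968 ± 33.7 in control, and PDGFRB had 875 ± 66.4 after ELF4 siRNA and 1989 ± 63.4 in control (SD, n = 3 each). The 7 markers gave sums of 8079 to 8686 in ELF4 siRNA libraries and 9137 to 9349 in control libraries. THY1 made up the largest part of these sums (4443 ± 167 after ELF4 siRNA and 5376 ± 71.4 in control; SD, n = 3 each). It fell with PDGFRB, while COL1A1, COL3A1, DCN and LUM rose, so the lower sums do not describe all the markers. The part of these markers in the results was not tested. All 6 libraries come from 1 neuroblastoma line, so the marker values do not show that fibroblasts or leukocytes were present. In bulk RNA fewer cells of a type and less RNA per cell cannot be told apart.

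After ELF4 siRNA, IRF1, IRF2, TRIM22 and STAT2 rose, and OAS1, OAS3, ISG15 and BST2 fell. The call is a limma adjusted p under 0.05 over all 20339 genes tested, and the fold changes are log2 values of the normalised read count plus 1, ELF4 siRNA over control siRNA. Of the 27 genes with a row, 23 were tested, because MX1, IRF9, XAF1 and SAMD9 did not reach a value of 10 in at least 3 libraries. Thus 8 of 23 tested genes passed, 4 in each direction, where 45.1% of all tested genes passed, 20.7% higher and 24.4% lower. In 12 of the 23, all ELF4 siRNA values lay on the same side of all control values, above them in 6 and below them in 6, against a background of 53.6%, made up of 25.4% higher and 28.2% lower. The median log2 fold change of the 23 was -0.019, and that of all genes tested was -0.0042. Their median absolute log2 fold change was 0.25, against 0.22 over all genes tested.

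The share of genes called differs with the level of expression, so the calls were also read by level. Among 12 genes whose mean lay between 10 and 100, 3 passed, where 23.1% of all tested genes at that level passed. Among 8 genes whose mean lay between 100 and 1000, 4 passed, against 53.2% of all tested genes there, and of 3 genes at 1000 or more, 1 passed, against 63% there. These shares were close to or below the background, so the number of calls is no result about these genes. The same test by edgeR on the recovered reads called 6 higher and 4 lower, where 45.5% of all genes were called, and DESeq2 called 2 higher and 2 lower, where 39.3% were. Without the trend in limma 2 were higher and 3 lower (38.5% of all genes), and without control replicate 1 the counts were 2 and 1 (37.7%).

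**Figure D2:**
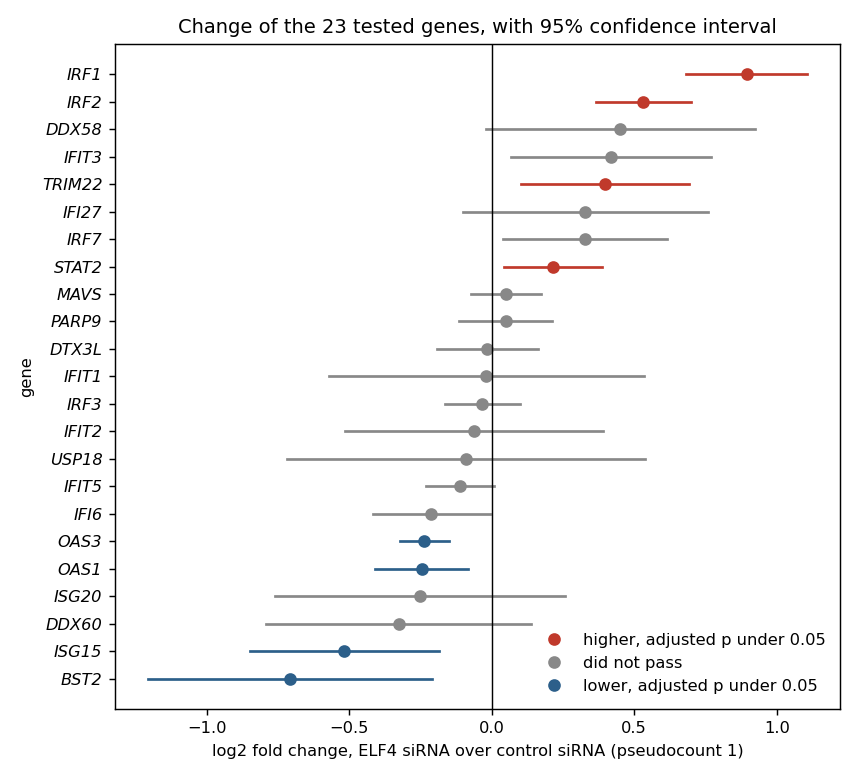
Log2 fold change between ELF4 siRNA and control siRNA libraries, positive where higher after ELF4 siRNA (horizontal axis), for each of the 23 tested genes, with its 95% confidence interval from limma; red genes were higher and blue genes lower at an adjusted p under 0.05, and grey genes did not pass. IRF1 lies farthest to the right at 0.90 and BST2 farthest to the left at -0.71.

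The ligands come first in the cascade. All 13 ligand genes looked up, among them IFNB1, IFNG and the IFNL genes, had no row under their name and are not analysed here. On the receptor side 11 genes of the receptors and the JAK-STAT cascade were tested, and 1 rose, 3 fell and 7 missed the threshold (median log2 fold change -0.0048), a share of 36.4% called beside 45.1% of all genes. IFNAR1, a chain of the type I receptor, had 1164, 1034 and 1094 normalised reads in ELF4 siRNA libraries, against 1638, 1379 and 1668 in control libraries, and fell (log2 fold change -0.51, adjusted p = 4.44e-05). All 3 values after ELF4 siRNA were below all 3 control values. IL10RB, which type III interferons share with interleukin 10, also fell (111 ± 9.53 after ELF4 siRNA and 146 ± 8.12 in control, log2 fold change -0.38, adjusted p = 0.00586), while STAT3 rose (3593 ± 48.5 after ELF4 siRNA and 2934 ± 101 in control, log2 fold change 0.29, adjusted p = 5.30e-05; SD, n = 3 each).

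Of the complex that binds the ISRE, STAT2 had 273, 275 and 244 normalised reads after ELF4 siRNA, against 218, 241 and 223 in control. The groups did not overlap, but the lowest ELF4 siRNA value was only slightly above the highest control value. STAT2 rose by a small amount (log2 fold change 0.22, SE 0.08, limma adjusted p = 0.0399). The call was lost without control replicate 1 (adjusted p = 0.145), control replicate 3 (0.108), ELF4 siRNA replicate 1 (0.12) or ELF4 siRNA replicate 2 (0.12), without the trend (0.0588) and with DESeq2 (0.108), and its adjusted p ranged from 0.0183 to 0.145 over all alternatives.

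IRF9, the DNA-binding partner of STAT2, had 9.91, 6.73 and 10.3 normalised reads in ELF4 siRNA libraries, against 9.42, 6.85 and 9.92 in control libraries, in the row of its own. Most reads over IRF9 fall in a pair of rows that join its name with overlapping genes. Summed with those rows, a step chosen after seeing the data, IRF9 gave 228 ± 6.80 after ELF4 siRNA and 227 ± 13.5 in control (log2 fold change 0.0063, adjusted p = 0.957). Reads of the overlapping genes cannot be separated in that sum.

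The interferon regulatory factors held the clearest rises. IRF1, a factor first known as an activator of interferon genes and of growth restraint, had 138, 144 and 141 normalised reads after ELF4 siRNA, against 74.4, 72.0 and 79.3 in control. All 3 ELF4 siRNA values lay far above the controls, and each group varied little. The log2 fold change was 0.90 (SE 0.10, limma adjusted p = 5.84e-06).

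IRF2, which binds the same letters as IRF1 and often represses there, had 366, 363 and 361 normalised reads after ELF4 siRNA, against 278, 244 and 232 in control. The 3 ELF4 siRNA libraries were nearly equal, and the controls were spread more widely below them. IRF2 rose with a log2 fold change of 0.53 (SE 0.08, adjusted p = 6.79e-05). Both calls held under every alternative run, with adjusted p of at most 0.000509 for IRF1 and 0.00401 for IRF2.

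IRF3, the constitutive factor downstream of MAVS, had 650, 645 and 603 normalised reads after ELF4 siRNA and 692, 639 and 614 in control. The groups overlapped, and the log2 fold change was -0.033 with a 95% confidence interval of -0.17 to 0.10 (adjusted p = 0.696). IRF7, which amplifies type I interferon and is induced by it, had 68.3, 76.3 and 82.8 after ELF4 siRNA and 61.2, 67.4 and 52.4 in control. These groups did not overlap, yet IRF7 did not pass (log2 fold change 0.33, adjusted p = 0.0614). It passed with edgeR (0.0415), without control replicate 2 (0.0351) and without ELF4 siRNA replicate 1 (0.0474). Among the other IRF genes and IRF2 cofactors, 3 of 4 tested rose and 0 fell, where 20.7% of all genes rose. All 4 had means above 100. Of all tested genes, 53.2% with means of 100 to 1000 and 63% at 1000 or more were called in either direction. With 4 genes, the number of calls is no result about this list. Those that rose included the IRF2-binding cofactor IRF2BP2 (3052 ± 175 after ELF4 siRNA and 2206 ± 207 in control, log2 fold change 0.47, adjusted p = 3.65e-05; SD, n = 3 each) and its relative IRF2BPL (log2 fold change 0.20, adjusted p = 0.00159).

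**Figure D3:**
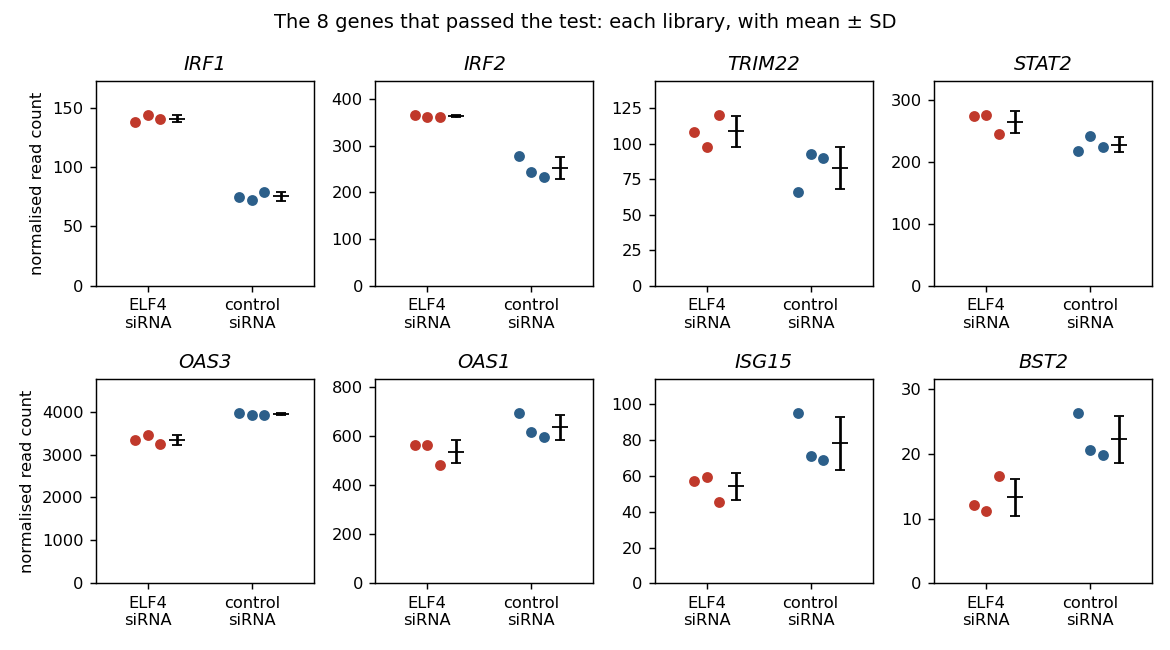
Normalised read count (vertical axis, from 0) in each library for the 8 genes that passed the test, with ELF4 siRNA in red, control siRNA in blue and black bars for the mean ± SD (n = 3). IRF1 and IRF2 show the widest gaps between groups, and OAS3 a small gap between tight groups.

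The oligoadenylate synthetases are enzymes that sense double-stranded RNA and answer it by making short oligoadenylates. OAS3 was the most abundant gene of the list and fell. It had 3342, 3463 and 3233 normalised reads after ELF4 siRNA, against 3970, 3925 and 3926 in control. The fall was small beside that of ELF4 but larger than the spread within either group (log2 fold change -0.24, SE 0.04, limma adjusted p = 0.000285), and it held under every alternative run, with an adjusted p of at most 0.0121.

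OAS1, next to OAS3 on chromosome 12, had 566, 562 and 483 normalised reads after ELF4 siRNA, against 695, 618 and 598 in control. The groups did not overlap, and the log2 fold change of -0.25 (SE 0.08, adjusted p = 0.0163) was close to that of OAS3. The OAS1 call was lost without control replicate 1 (0.0976), without ELF4 siRNA replicate 3 (0.0764) and without the trend (0.0821), over a range of 0.00173 to 0.0976. Both OAS genes were thus lower in every ELF4 siRNA library than in any control library.

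ISG15, which is joined to other proteins as ubiquitin is, had 57.3, 59.5 and 45.5 normalised reads after ELF4 siRNA, against 95.2, 70.8 and 68.7 in control. All ELF4 siRNA values were below all controls, with control replicate 1 well above the other controls. ISG15 fell with a log2 fold change of -0.52 (SE 0.15, adjusted p = 0.0139). The call was lost without control replicate 1 (0.0903), without ELF4 siRNA replicate 3 (0.0619) and with DESeq2 (0.0523), over a range of 0.00555 to 0.0903.

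USP18, the protease that removes ISG15 and also blocks the type I receptor, had 8.28 to 17.96 normalised reads after ELF4 siRNA and 11.3 to 16.0 in control, and did not pass (adjusted p = 0.831). It rests on 78 reads in all. Of the 4 enzymes that attach ISG15, UBE2L6 was the only one tested (35.9 ± 12.2 after ELF4 siRNA and 41.3 ± 12.1 in control, adjusted p = 0.536). HERC5 had no row under its name, and UBA7 and HERC6 had means under 10.

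BST2, the tetherin that holds budding viruses at the cell surface, had 12.1, 11.2 and 16.6 normalised reads after ELF4 siRNA, against 26.4, 20.6 and 19.8 in control. It had the most negative fold change of the tested list (log2 fold change -0.71, SE 0.23, adjusted p = 0.0223), but it rests on 111 reads over the 6 libraries, and the value was -0.47 with a pseudocount of 10. The call was lost without control replicate 1 (0.109), ELF4 siRNA replicate 1 (0.0602) or ELF4 siRNA replicate 2 (0.0718) and with DESeq2 (0.165), over a range of 0.0133 to 0.165. TRIM22, an antiviral ubiquitin ligase, had 108, 97.7 and 120 normalised reads after ELF4 siRNA, against 65.95, 92.5 and 89.97 in control. It rose (log2 fold change 0.40, SE 0.14, adjusted p = 0.0299), with control replicate 1 the lowest of all 6 values. Without control replicate 1 its log2 fold change was 0.24. The TRIM22 call was lost without control replicate 1 (0.163), ELF4 siRNA replicate 1 (0.0684) or ELF4 siRNA replicate 3 (0.116), without the trend (0.0869) and with DESeq2 (0.0758), over a range of 0.0164 to 0.163.

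The IFIT genes, whose products bind viral RNA, did not pass. IFIT5 had 1073, 1011 and 1133 normalised reads after ELF4 siRNA and 1131, 1131 and 1216 in control, with a log2 fold change of -0.11 and a 95% confidence interval of -0.23 to 0.0063 (adjusted p = 0.115, and 0.0472 without ELF4 siRNA replicate 3). Its groups overlapped by a narrow margin. IFIT3 had 46.3, 66.2 and 66.2 after ELF4 siRNA and 41.5, 49.1 and 41.1 in control, and lay at the threshold (log2 fold change 0.42, adjusted p = 0.0510). It passed with edgeR (0.0302), with total-count scaling (0.0490), with a pseudocount of 10 (0.0478), with the replicate number as a block (0.0350), without control replicate 2 (0.0376) and without ELF4 siRNA replicate 1 (0.00883). IFIT1 had 14.6 to 22.0 after ELF4 siRNA and 13.7 to 26.4 in control, and IFIT2 had 39.3 to 44.9 after ELF4 siRNA and 29.2 to 58.3 in control. In both, the control range enclosed the ELF4 siRNA range.

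Other effectors were low or did not pass. IFI6, a mitochondrial and endoplasmic reticulum protein that restrains cell death, had 129, 128 and 113 normalised reads after ELF4 siRNA, against 151, 139 and 138 in control. These groups did not overlap, yet the adjusted p was 0.0873 (log2 fold change -0.21). IFI27 ranged from 31.4 to 36.2 after ELF4 siRNA and from 20.7 to 35.4 in control (adjusted p = 0.202). ISG20, an exonuclease, ranged from 16.8 to 27.9 after ELF4 siRNA and from 19.8 to 30.2 in control (adjusted p = 0.419). MX1, a dynamin-like antiviral GTPase that is among the genes most used to report interferon action, had 4.41, 6.73 and 8.28 after ELF4 siRNA, against 9.42, 2.28 and 4.25 in control, and was untested at that level. XAF1, a promoter of apoptosis, had 4.41 to 7.86 after ELF4 siRNA and 2.83 to 5.71 in control. SAMD9 had 2.07 to 6.73 after ELF4 siRNA and 8.50 to 11.3 in control, without overlap, on 46 reads in all.

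DDX58, DDX60 and the adaptor MAVS did not pass. MAVS, the mitochondrial adaptor, had 1457, 1460 and 1267 normalised reads after ELF4 siRNA and 1339, 1357 and 1335 in control (log2 fold change 0.051, 95% confidence interval -0.07 to 0.17, adjusted p = 0.503). ELF4 siRNA replicate 3 was the lowest of the 6 and the other ELF4 siRNA libraries the highest. DDX58, which encodes the RNA sensor RIG-I, had 25.3, 17.96 and 21.7 after ELF4 siRNA, against 13.2, 17.1 and 16.3 in control. These groups did not overlap, but on 112 reads in all the gene did not pass (log2 fold change 0.45, adjusted p = 0.112). DDX60 had 13.2 to 20.2 after ELF4 siRNA and 20.6 to 22.6 in control (log2 fold change -0.33, adjusted p = 0.243).

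Of the other nucleic acid sensors and adaptors, 19 were tested, and 2 rose, 5 fell and 12 missed the threshold (median log2 fold change -0.031), a share of 36.8% called beside 45.1% of all genes. The adaptor MYD88 of Toll-like receptors fell (252 ± 16.4 after ELF4 siRNA and 358 ± 20.3 in control, log2 fold change -0.50, adjusted p = 9.59e-05). TRIM25, the ubiquitin ligase linked to RIG-I activation, rose (216 ± 4.71 after ELF4 siRNA and 157 ± 5.41 in control, log2 fold change 0.46, adjusted p = 0.000295).

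PARP9 and DTX3L, partner proteins encoded by neighbouring genes that start close together on chromosome 3, were measured well and did not pass. PARP9 had 236, 212 and 230 normalised reads after ELF4 siRNA and 221, 219 and 214 in control (log2 fold change 0.048, 95% confidence interval -0.12 to 0.21, adjusted p = 0.646). DTX3L had 351, 400 and 350 after ELF4 siRNA and 410, 338 and 366 in control (log2 fold change -0.016, 95% confidence interval -0.19 to 0.16, adjusted p = 0.896). Both pairs of groups overlapped.

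Levels of different genes were compared per kilobase of merged exons in GENCODE 29, averaged over the 6 libraries. On this scale OAS3 had 442 normalised reads per kilobase, followed by IFIT5 with 278, IRF3 with 169, IFI6 with 154, OAS1 with 119 and MAVS with 116. The merged length counts the exons of every annotated transcript of a gene, so this order depends in part on the annotation. The median of the 27 genes was 15.9, with IRF9 counted by its own row only (2.34). IRF1 lay close to that median at 18.04 after ELF4 siRNA and 9.65 in control. MX1 with 0.684, XAF1 with 0.779 and SAMD9 with 1.08 had the lowest levels per kilobase. In per-kilobase terms IFIT1 had 4.21, IFIT2 10.6 and IFIT3 19.6, all far below IFIT5. OAS1 and MAVS are neighbours in this order, and OAS1 had 109 per kilobase after ELF4 siRNA and 129 in control, on either side of MAVS.

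**Figure D4:**
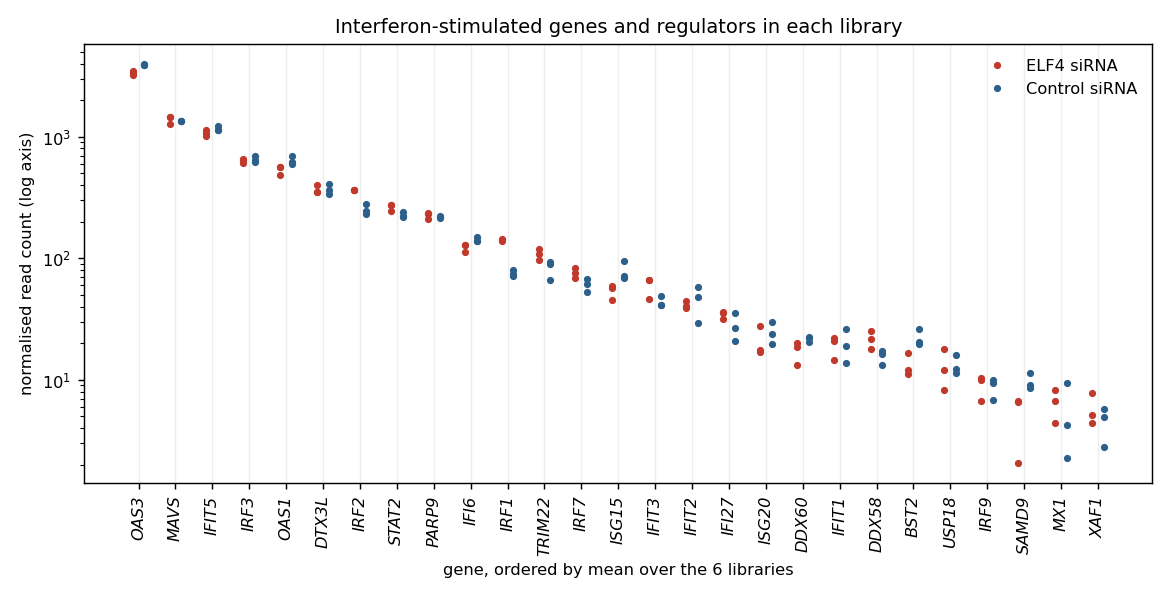
Normalised read count on a log axis for each of the 27 genes with a row, in every library (red, ELF4 siRNA; blue, control siRNA), ordered by mean. Values run from a mean of 3346 after ELF4 siRNA and 3940 in control for OAS3 to under 10 for MX1, XAF1, SAMD9 and IRF9 in most libraries.

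Further interferon-stimulated genes, from a list of 49, included 32 tested genes, and here 9 rose, 5 fell and 18 missed the threshold (median log2 fold change 0.12). This share of 43.8% called is near the 45.1% of all genes, and the counts were 4 higher and 4 lower with DESeq2 and 6 and 2 without the trend, so neither the number nor the direction of calls is a result about that list. HELZ2, a helicase and nuclear receptor coactivator, had 612, 603 and 617 normalised reads after ELF4 siRNA, against 368, 360 and 376 in control (log2 fold change 0.73, adjusted p = 2.58e-07). GBP2, a guanylate-binding protein of the interferon-gamma response, had 198, 214 and 234 after ELF4 siRNA, against 122, 96.0 and 125 in control (0.92, adjusted p = 1.27e-05). SHISA5, a membrane protein linked to cell death, had 811, 864 and 849 after ELF4 siRNA, against 1304, 1250 and 1280 in control (-0.60, adjusted p = 3.62e-07). All 3 genes had groups without overlap, with HELZ2 and GBP2 above control and SHISA5 below it.

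Negative regulators of the cascade numbered 11 tested genes, and 4 rose, 1 fell and 6 missed the threshold (median log2 fold change 0.064), a share of 45.5% called beside 45.1% of all genes. The 4 include SOCS1, which met the filter through its ELF4 siRNA values, so its call gives no support for a rise. CBLB, a ubiquitin ligase, rose (3216 ± 0.931 after ELF4 siRNA and 2411 ± 167 in control, log2 fold change 0.42, adjusted p = 1.21e-05). The phosphatase gene PTPN1 rose (2902 ± 40.1 after ELF4 siRNA and 2464 ± 133 in control, log2 fold change 0.24, adjusted p = 0.00082), and NLRX1, a mitochondrial inhibitor of MAVS signalling, fell (252 ± 10.2 after ELF4 siRNA and 328 ± 9.68 in control, log2 fold change -0.38, adjusted p = 0.000469; SD, n = 3 each).

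**Figure D5:**
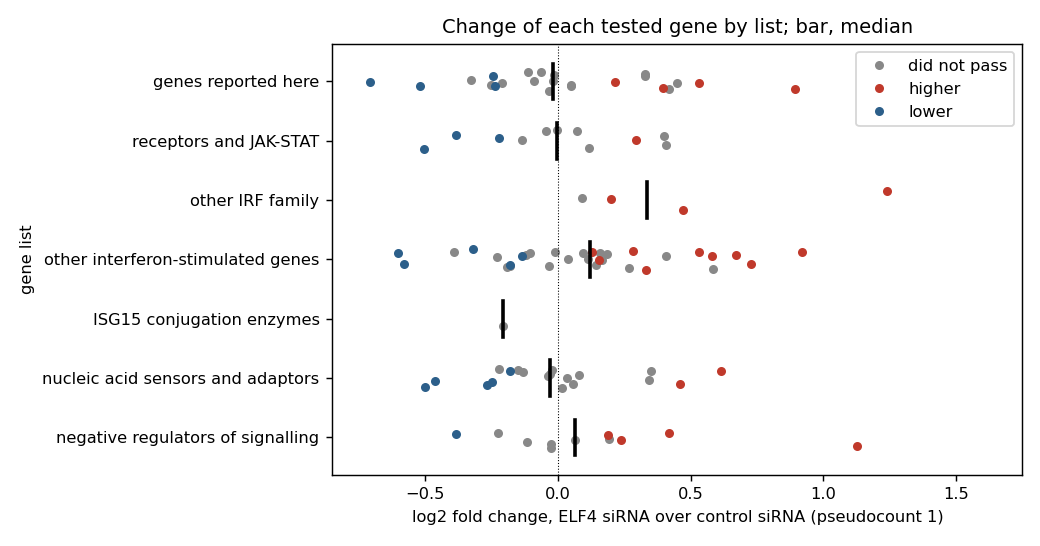
Log2 fold change between ELF4 siRNA and control siRNA libraries, positive where higher after ELF4 siRNA (horizontal axis), for every tested gene of the list described here and of the other interferon pathway lists, with red for higher, blue for lower and grey for genes that did not pass; the black bar is the list median. Each list with more than 4 tested genes holds genes on both sides of 0.

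The promoter letters can be set beside these calls. Of the 4 genes that fell, ISG15, OAS3 and BST2 hold ISRE letters and OAS1 and BST2 hold GAS letters in their windows. The OAS1 window also holds gaaacgaaa, as does that of DDX58, which did not pass. There the GAAA repeats lie 1 base apart, and the search, which needs 2 bases, did not count them. Of the 4 genes that rose, windows were held for STAT2 and IRF1, with ISRE letters in 0 of 2 and GAS letters in 1 of 2. Among 11 genes that did not pass and have a window, 9 hold ISRE letters, and 0 of the genes that rose and have a window do. IFIT1, IFIT3, IFIT5, IFI6, IFI27 and DDX60, each with at least 2 ISRE matches, are among those that did not pass.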

How the data were processed

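RNA abundance was measured in 6 libraries, 3 per group, grouped by their labels. The authors deposited a signal: gene-level read counts already scaled by library. The submitters' processing notes name hg19, TopHat, featureCounts and DESeq2, while the tool versions, the annotation, the strand setting and any filter were not given in the sources used here. Dividing the deposited values by the step of each column gave whole numbers to within 0.001 for 100% of them, so the reads behind them were recovered. Of 26906 rows, 2148 join several gene names, and without a stated strand setting overlapping and antisense genes cannot be told apart.

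A gene entered the test if 3 or more libraries held a value of 10 or more, and was tested with limma (with a trend) on log2(value + 1), and p-values were adjusted by Benjamini-Hochberg over all 20339 genes. This scale understates changes of genes with few reads. On the recovered reads, edgeR called 45.5% of genes and DESeq2 39.3%. Libraries of 1 group differed by more than sampling noise (chi-square per degree of freedom 2.05 to 5.78). The labels do not say that the libraries are separate cultures, so the p-values cover only the spread among these libraries, which may be technical.

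The members and lists were chosen with earlier results of these data known. Named in full were the members past the threshold and the 5 others with the highest mean; from each other list, up to 3 genes past the threshold with the smallest adjusted p were named, or else the gene with the highest mean. Some genes that this rule names are not reported here. The test was tested on simulated data. Alternatives changed the pseudocount, the filter or the scaling, dropped the trend, used edgeR or DESeq2, added a replicate block or left out 1 library. Software was Python 3.11.15 with pandas 2.3.3, numpy 2.4.6 and matplotlib 3.10.9, and R 4.3.3 with DESeq2 1.42.0, edgeR 4.0.16 and limma 3.58.1.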

Additional observations from a re-analysis of the deposited data

How the results depend on the processing

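IRF1, IRF2 and OAS3 kept their direction and call under every alternative run. Of 4 listed genes that rose and 4 that fell, the counts were 2 and 2 with DESeq2 (39.3% of all genes called), 2 and 3 without the trend, and 3 and 2 where a mean of at least 100 was required (59.6% of all genes called), which leaves 11 listed genes tested and drops ISG15, BST2 and TRIM22 by construction. With edgeR 6 rose and 4 fell. Leaving out 1 library gave 2 to 6 that rose and 1 to 4 that fell; the lowest counts, 2 and 1, came without control replicate 1, where 37.7% of all genes were called, and the cause was not tested. The median log2 fold change was -0.0225 to -0.0073 under the other settings and -0.0481 to 0.0484 when 1 library was left out. The ELF4 fall ranged from -3.18 to -1.84. For single named genes, 708 values gave the same call as reported, 26 no longer passed and 10 newly passed. Scalings moved the median of all genes by at most 0.0121.

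The labels do not say that equal replicate numbers mark a shared origin, and same-numbered deviations correlated at 0.029, 0.075 and 0.041, against -0.057 to 0.015 for other numbers. With the replicate block 5 listed genes rose and 4 fell, and 9910 of all genes passed in place of 9173. Depth limits BST2, DDX58, USP18, MX1, XAF1, SAMD9 and the row of IRF9 alone, each resting on at most 112 reads in all.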

Other observations

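The genes in this paragraph were chosen after their values were seen. SOCS1, which inhibits JAK kinases and is itself induced by interferon, had 18.7, 12.3 and 16.6 normalised reads after ELF4 siRNA, against 4.71, 5.71 and 10.6 in control (log2 fold change 1.13, SE 0.32, limma adjusted p = 0.00992). The groups did not overlap, all 6 values are low, and the gene rests on 69 reads in all. SOCS1 met the filter through its ELF4 siRNA values, so its adjusted p gives no support for a rise. With a pseudocount of 10 its log2 fold change was 0.61. IFI16, a nuclear DNA sensor, had 121, 89.8 and 144 after ELF4 siRNA, against 78.2, 84.5 and 65.2 in control (0.61, adjusted p = 0.00553), and the lowest ELF4 siRNA value was close to the highest control value. TRIM21, a cytosolic antibody receptor, had 45.9 ± 1.89 after ELF4 siRNA and 31.5 ± 3.17 in control (SD, n = 3 each; 0.53, limma adjusted p = 0.0109, and 0.104 with DESeq2). Among the leukocyte markers, PTPRC had 22.4 ± 4.67 after ELF4 siRNA and 10.2 ± 1.78 in control, and CD14 had 16.7 ± 3.997 after ELF4 siRNA and 40.3 ± 2.27 in control. These 2 markers moved in opposite directions, and PTPRC met the filter through its ELF4 siRNA values. Of the other leukocyte markers, LYZ (limma adjusted p = 0.0692) and CSF1R (untested, 38 reads in all) were higher without overlap. LYZ also met the filter through its ELF4 siRNA values. CD79A (untested, 18 reads in all) was lower without overlap, but control replicate 2 and every ELF4 siRNA library held 2 reads each. Among all tested genes 53.6% had groups without overlap, so these cases are no result about the markers.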
